A study of Zea mays with 8 samples.

Results

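The gamma, beta and delta zeins are the sulfur-rich seed storage proteins of maize, and 6 genes encoding them were examined among the 37965 genes of the deposited count table. The genes were chosen by identifier: 3 gamma zeins (27-kDa, 50-kDa and 16-kDa), 1 beta zein (15-kDa) and 2 delta zeins (18-kDa and 10-kDa). The rule itself uses no measured value, although the set was proposed with earlier results of these data known, and all 6 passed the filter on low counts that left 22014 genes to test. RNA had been sequenced from endosperm of the maize line A188, 19 days after pollination, enriched for the endosperm adjacent to the scutellum (EAS), the tissue that borders the absorbing organ of the embryo. There were 4 libraries of a KIL1 KIL2 knockout and 4 libraries of wild type (WT), with no treatment named in the labels. KIL1 and KIL2 are transcription factors of the NAC family, and the comparison asks how transcript levels differ when both are lost. Nothing in the labels ties the libraries of a genotype to different plants or ears, so the p-values cover only the spread among these libraries, part of which may be technical. The labels do not say how the knockout was made or how many lines it comprises, and no check of the genotype labels against KIL1 and KIL2 transcripts was made here.

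Zeins are prolamins, alcohol-soluble proteins that starchy endosperm cells make on the rough endoplasmic reticulum and store there in protein bodies. The gamma and beta zeins are rich in cysteine and form the cross-linked outer layer of the protein body, while the alpha zeins fill its core together with the methionine-rich delta zeins. Transcription of zein genes is known to depend on endosperm factors such as Opaque2 and the prolamin-box binding factor, and on other NAC proteins of the endosperm.

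Transcripts of all 6 genes were more abundant in the knockout than in wild type. Of the 6 genes 6 rose and 0 fell (edgeR quasi-likelihood test, adjusted p below 0.05 over all tested genes), where 8.51% of all tested genes rose and 10.1% fell. The rises ranged from 1.33-fold for the 27-kDa gamma zein to 2.17-fold for the 18-kDa delta zein. Their median log2 fold change was 0.78, beside a median of -0.003 over all tested genes. For each of the 6 genes every knockout library lay above every wild type library, which held for 10.8% of all tested genes. The 6 genes were among the 100 most abundant, and of the other 94 genes of that class 50 showed the same separation. In a bulk sample, a larger share of zein-making cells and more zein RNA per cell cannot be told apart. Markers of other cell types in the endosperm or of the embryo were not analysed here, so their part in these differences was not tested.

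**Figure D1:**
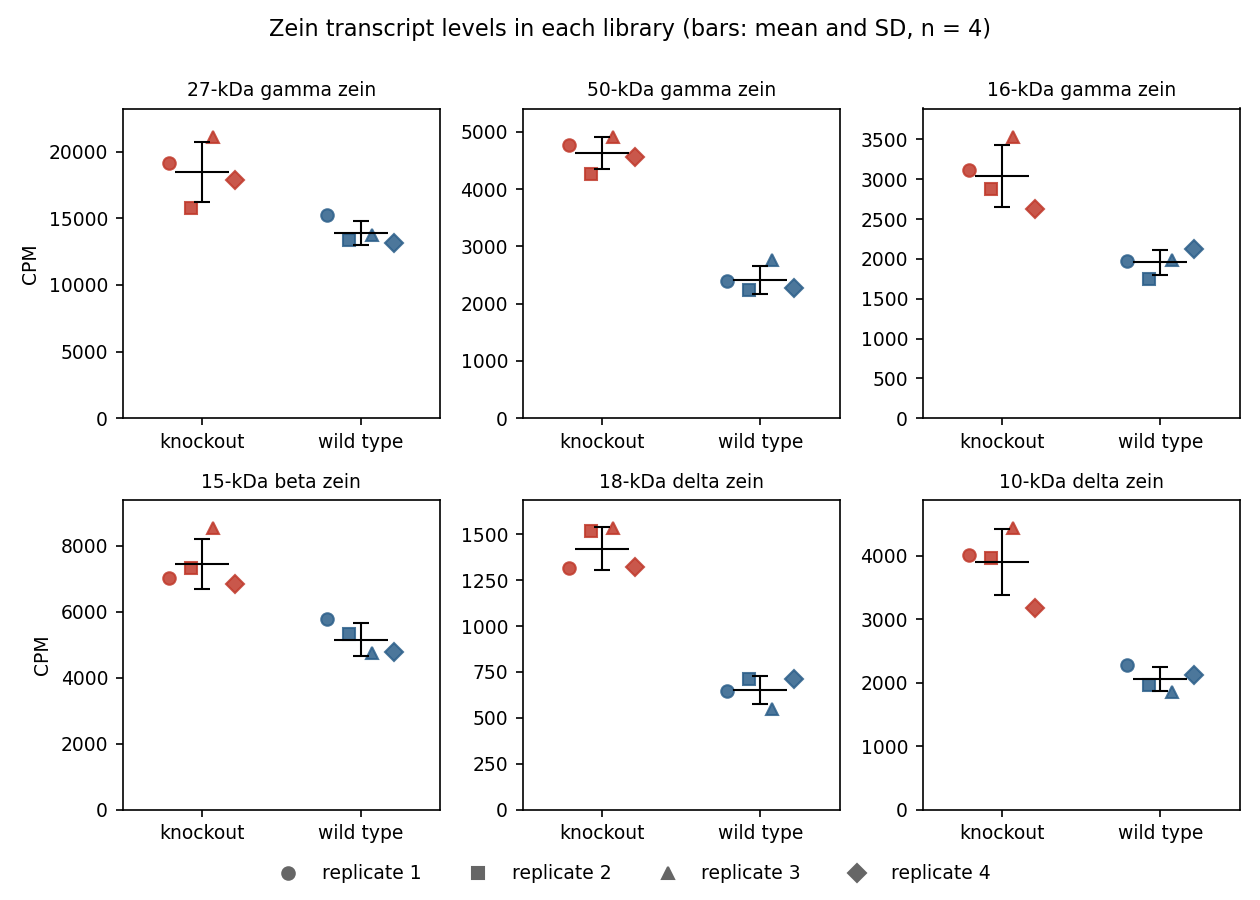
Normalised read counts (CPM, a gene's count relative to the TMM-adjusted library size) of each zein gene in the 4 knockout libraries (red) and the 4 wild type libraries (blue); marker shapes give the replicate number, and black lines give the mean and SD (n = 4). The knockout points lie above the wild type points in every panel, narrowly for the 27-kDa gamma zein (15801 against 15252 CPM for the nearest libraries), and widely for the 18-kDa delta zein (1315 against 711 CPM).

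The table gives each gene as a single exon whose length is a multiple of 3, which points to models of coding sequence without untranslated parts, and none overlaps another gene of the table. Lengths below are therefore called coding lengths. As a check of the names, all 6 lie on the chromosome on which the B73 reference (Zm-B73-REFERENCE-NAM-5.0) places the genes with the symbols gz27, gz50, gz16, bz15, dzs18 and dzs10. In the A188 annotation the 50-kDa and 27-kDa gamma zein genes are neighbours, 27146 bases apart with 0 genes between them, and the B73 table also lists 0 genes between gz50 and gz27. Each of the 6 genes was counted deeply, with 35227 to 1149245 counts per library, so counting error alone would give a coefficient of variation of up to 0.533% for independent reads, or 0.753% if both mates of every pair were counted. The observed coefficients of variation between libraries were larger, 6.05% to 13.4% in the knockout and 6.72% to 11.7% in wild type.

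The gamma zeins are cysteine-rich proteins, and the 27-kDa form is known for its part in starting protein bodies. The 27-kDa gamma zein gene (Zm00001d020592, chromosome 7, 123301718 to 123302389, plus strand of the A188 annotation, 672 bases) had the highest mean count of any gene in the table. It measured 19191, 15801, 21134 and 17869 CPM in knockout replicates 1 to 4, against 15252, 13379, 13787 and 13187 CPM in wild type replicates 1 to 4. The groups did not overlap, but the lowest knockout library was only 1.04-fold above the highest wild type library. Knockout libraries averaged 18499 ± 2244 CPM and wild type libraries 13901 ± 934 CPM (SD, n = 4), a 1.33-fold rise (95% interval 1.16 to 1.53; log2 fold change 0.41 with SE 0.09, edgeR adjusted p = 0.00903).

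The 50-kDa gamma zein is the largest protein of the family and a minor one. Its gene (Zm00001d020591, chromosome 7, 123273645 to 123274571, plus strand, 927 bases) measured 4767, 4269.6, 4915 and 4559 CPM in knockout replicates 1 to 4, against 2397, 2236, 2768 and 2270.4 CPM in wild type replicates 1 to 4. The knockout libraries lay close together, and the lowest of them was 1.54-fold above the highest wild type library. Knockout libraries averaged 4628 ± 279.9 CPM and wild type libraries 2418 ± 243 CPM (SD, n = 4), a 1.91-fold rise (95% interval 1.70 to 2.15; log2 fold change 0.94 with SE 0.08, edgeR adjusted p = 5.94e-05).

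The 16-kDa gamma zein is a close relative of the 27-kDa form. Its gene (Zm00001d005793, chromosome 2, 193979260 to 193979811, plus strand, 552 bases) measured 3116, 2873, 3535 and 2624 CPM in knockout replicates 1 to 4, against 1975, 1743, 1982 and 2129 CPM in wild type replicates 1 to 4. Knockout replicate 3 was the highest library and knockout replicate 4 the lowest of its group, still 1.23-fold above the highest wild type library. Knockout libraries averaged 3037 ± 388 CPM and wild type libraries 1957 ± 159.7 CPM (SD, n = 4), a 1.55-fold rise (95% interval 1.35 to 1.79; log2 fold change 0.63 with SE 0.09, edgeR adjusted p = 0.000995).

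The 15-kDa beta zein carries both cysteine and methionine and shares the outer layer of the protein body with the gamma zeins. Its gene (Zm00001d035760, chromosome 6, 47857177 to 47857713, minus strand, 537 bases) measured 7024, 7332, 8533 and 6845 CPM in knockout replicates 1 to 4, against 5781, 5320.4, 4756 and 4768 CPM in wild type replicates 1 to 4. Knockout replicate 3 stood highest and the other 3 knockout libraries lay close together, all above wild type. Knockout libraries averaged 7433 ± 760.0 CPM and wild type libraries 5156 ± 493 CPM (SD, n = 4), a 1.44-fold rise (95% interval 1.26 to 1.65; log2 fold change 0.53 with SE 0.09, edgeR adjusted p = 0.00206).

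The delta zeins are the methionine-rich members and lie inside the protein body. The 18-kDa delta zein gene (Zm00001d037436, chromosome 6, 130298265 to 130298900, plus strand, 636 bases) measured 1315, 1517, 1533 and 1322 CPM in knockout replicates 1 to 4, against 645, 711, 548 and 710.2 CPM in wild type replicates 1 to 4. The groups were far apart, the lowest knockout library being 1.85-fold above the highest wild type library. Knockout libraries averaged 1422 ± 119 CPM and wild type libraries 654 ± 76.7 CPM (SD, n = 4), a 2.17-fold rise (95% interval 1.90 to 2.49; log2 fold change 1.12 with SE 0.09, edgeR adjusted p = 4.74e-05). It was the least abundant of the 6 genes and had the largest fold change.

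The 10-kDa delta zein is a small protein long studied as a source of methionine in maize grain. Its gene (Zm00001d045937, chromosome 9, 49597260 to 49597712, plus strand, 453 bases) measured 4004, 3969, 4433 and 3179 CPM in knockout replicates 1 to 4, against 2279.8, 1964, 1851 and 2117 CPM in wild type replicates 1 to 4. Knockout replicate 4 was the lowest of its group and was 1.39-fold above the highest wild type library. Knockout libraries averaged 3896 ± 523 CPM and wild type libraries 2053 ± 187 CPM (SD, n = 4), a 1.90-fold rise (95% interval 1.63 to 2.21; log2 fold change 0.92 with SE 0.10, edgeR adjusted p = 0.000198).

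Knockout replicate 3 held the highest knockout value for all 6 genes, while the lowest knockout value fell in replicate 4 for 3 genes, in replicate 2 for 2 genes and in replicate 1 for 1 gene. In wild type the highest value fell in replicate 1 for 3 genes and in each other replicate for 1 gene. Without knockout replicate 3 the 6 genes still rose, with a median log2 fold change of 0.71 and the 27-kDa gamma zein at 0.34 (edgeR adjusted p = 0.0109). Of all tested genes 7.65% rose in that setting. Knockout replicate 1 stood apart from the other knockout libraries on the second principal component of all tested genes. Its zein values lay within the range of the other 3 knockout libraries for 5 of the 6 genes. Without it the 6 genes rose with a median log2 fold change of 0.77, where 7.11% of all tested genes rose.

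**Figure D2:**
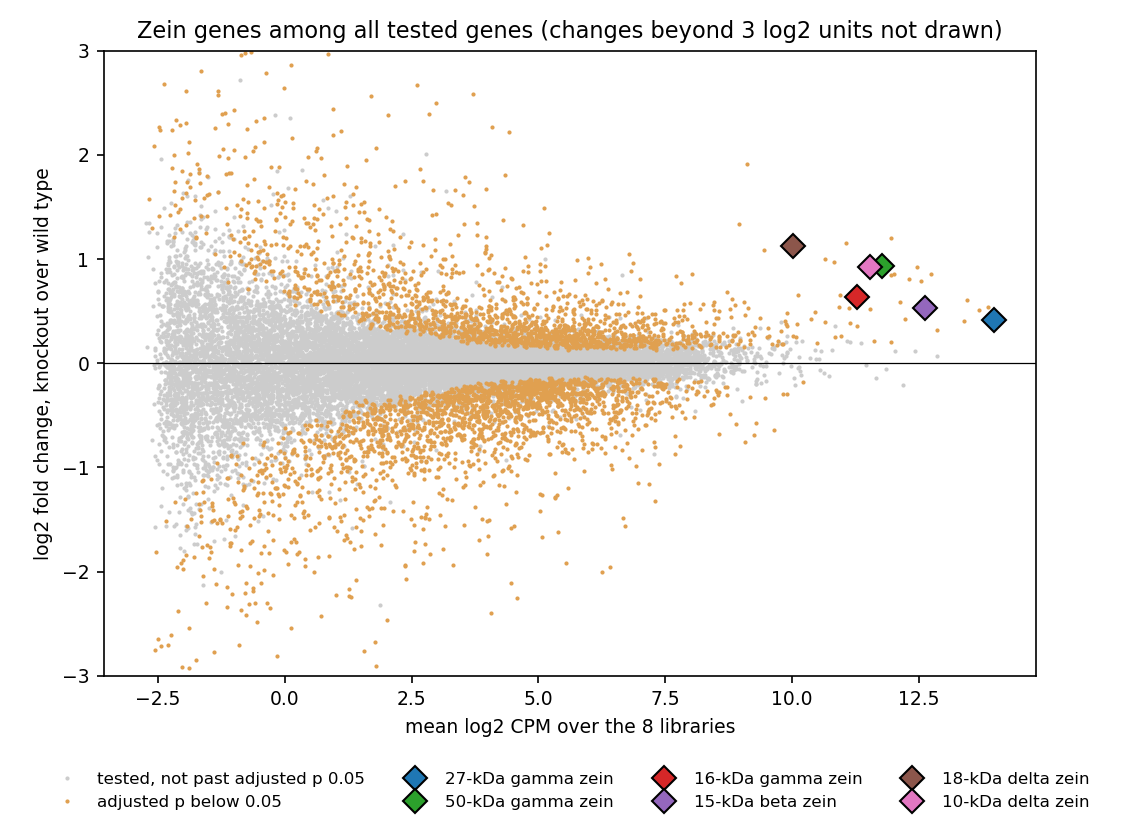
Log2 fold change (knockout over wild type, vertical axis) against mean log2 CPM over the 8 libraries (horizontal axis) for the tested genes (dots; orange where the edgeR adjusted p was below 0.05) and the 6 zein genes (diamonds). Tested genes with changes beyond the limits of the vertical axis are not drawn. The zein genes lie at the right-hand end among the most abundant genes and above 0, between 0.41 for the 27-kDa gamma zein and 1.12 for the 18-kDa delta zein.

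All 6 genes were among the 100 most abundant genes of the table, at ranks 1 (27-kDa gamma), 9 (15-kDa beta), 23 (50-kDa gamma), 27 (10-kDa delta), 32 (16-kDa gamma) and 72 (18-kDa delta) by mean count. Abundant genes as a class also moved upward under TMM scaling. Of the other 94 genes in this class 46 rose (48.9%) and 4 fell, with a median log2 fold change of 0.21. Only the 6 zein genes were set aside and the rest could not be named, so these 94 may include alpha zeins or other storage protein genes. The zein genes' median of 0.78 was exceeded by 11 of these 94 genes, and the 18-kDa delta zein's 1.12 by 2. In the other direction, 70 of the 94 had a log2 fold change below that of the 27-kDa gamma zein, the smallest of the zein rises.

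Together the 6 genes took 3.80%, 3.48%, 4.09% and 3.55% of all counts in knockout replicates 1 to 4, against 2.92%, 2.70%, 2.68% and 2.58% in wild type replicates 1 to 4. The groups did not overlap, and the mean share was 3.73% ± 0.277 in the knockout and 2.72% ± 0.144 in wild type (SD, n = 4), a difference of 1.01 percentage points. These shares are relative to raw library totals. With such totals in place of TMM factors in the edgeR test, the median change over all genes shifted to -0.12 on the log2 scale, and 1032 genes rose while 4743 fell, against 1873 and 2213 with TMM. The 6 zein genes still rose under that scaling, by 0.29 (27-kDa gamma) to 1.00 (18-kDa delta) on the log2 scale.

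**Figure D3:**
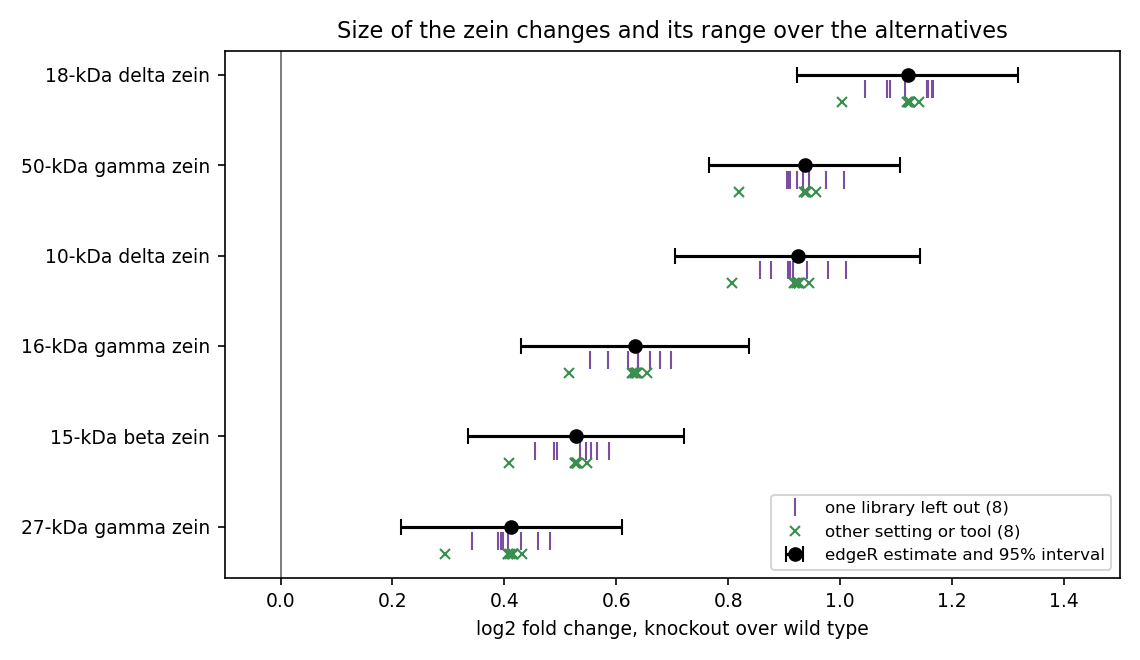
Log2 fold change (knockout over wild type) of each zein gene: black points with bars give the edgeR estimate and its 95% interval, purple ticks the values with 1 library left out, and green crosses the values under another scaling, filter, tool or the replicate block. All values lie above 0, and the lowest green cross of each gene, such as 0.29 for the 27-kDa gamma zein, comes from scaling by library totals.

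Per coding length, the order of the mean transcript levels was the same in both genotypes. In RPKM (CPM divided by the coding length in kilobases) the 27-kDa gamma zein led with 27528 ± 3339 in the knockout and 20686 ± 1390.4 in wild type (SD, n = 4). The 15-kDa beta zein followed with 13842 ± 1415 RPKM in the knockout and 9602 ± 918 RPKM in wild type. The 10-kDa delta zein, which has the shortest coding sequence, came next with 8601 ± 1154 RPKM in the knockout and 4532 ± 412 RPKM in wild type. These 3 levels were separated in both genotypes, since no library of one gene reached into the range of the next.

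Below them the 16-kDa gamma zein measured 5502 ± 703 RPKM in the knockout and 3546 ± 289 RPKM in wild type. The 50-kDa gamma zein measured 4992 ± 302 RPKM in the knockout and 2608 ± 262 RPKM in wild type. The ranges of these 2 genes overlapped in the knockout (4753 to 6404 against 4606 to 5302 RPKM), and knockout replicate 4 had the reverse order, so their order there is not resolved; they did not overlap in wild type (3157 to 3857 against 2412 to 2985 RPKM). The 18-kDa delta zein was lowest, with 2235 ± 187.5 RPKM in the knockout and 1028 ± 121 RPKM in wild type. From the highest to the lowest gene the mean level spanned 12.3-fold in the knockout and 20.1-fold in wild type.

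**Figure D4:**
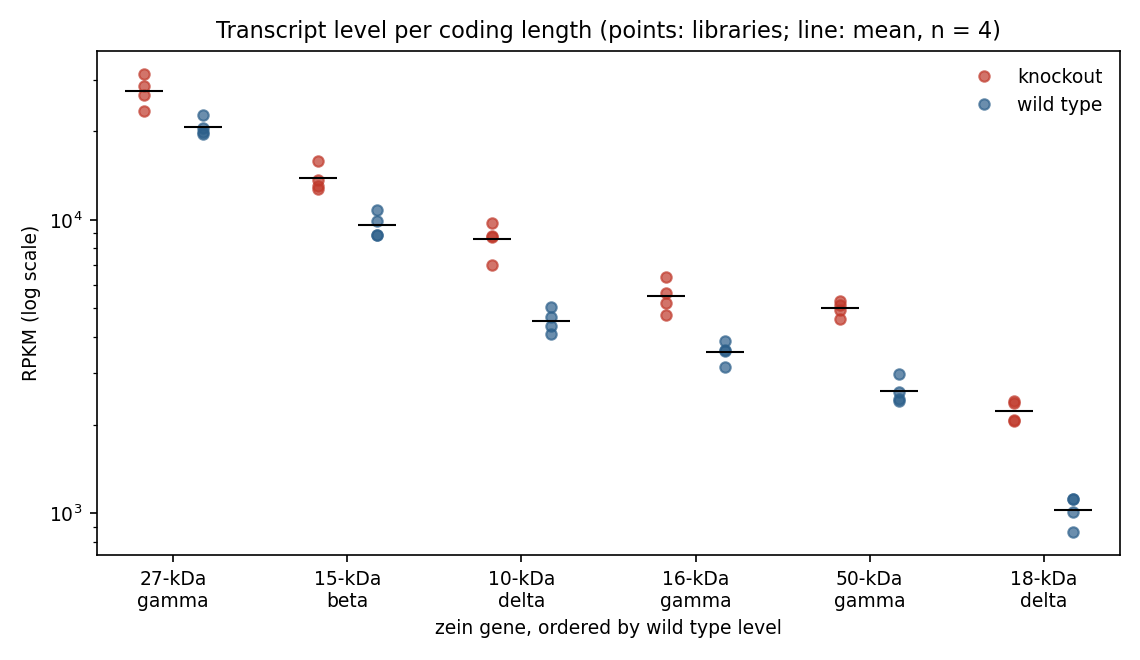
Transcript level per coding length (RPKM, log scale) of the 6 zein genes, ordered from left to right by wild type mean; points are libraries (knockout red on the left of each pair, wild type blue on the right) and black lines are means (n = 4). The order of the means is the same in both genotypes, from the 27-kDa gamma zein (27528 and 20686 RPKM) down to the 18-kDa delta zein (2235 and 1028 RPKM), and the 2 lower gamma zeins overlap in the knockout.

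The share of each gene in the summed zein counts is given as a description of the pool, with no test. Differences of this kind were common, since the count ratio of 2 genes lay apart between the genotypes for 54% of all pairs of the 100 most abundant genes and for 7 of the 15 zein pairs. The 27-kDa gamma zein supplied 44.2% to 49.1% of the counts of the 6 genes in knockout libraries, against 52.4% to 53.8% in wild type libraries, without overlap. The share of the 50-kDa gamma zein was 11.1% to 12.5% in the knockout and 8.46% to 10.8% in wild type. The delta zeins together made up 13.7% ± 1.23 in the knockout and 10.4% ± 0.782 in wild type (SD, n = 4), with ranges of 12.4% to 15.3% and 9.34% to 11.2%. For the 15-kDa beta zein (19.1% ± 1.12 in the knockout and 19.7% ± 1.18 in wild type) and the 16-kDa gamma zein (7.79% ± 0.393 and 7.50% ± 0.737) the ranges overlapped. Shares of 1 pool cannot move independently.

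**Figure D5:**
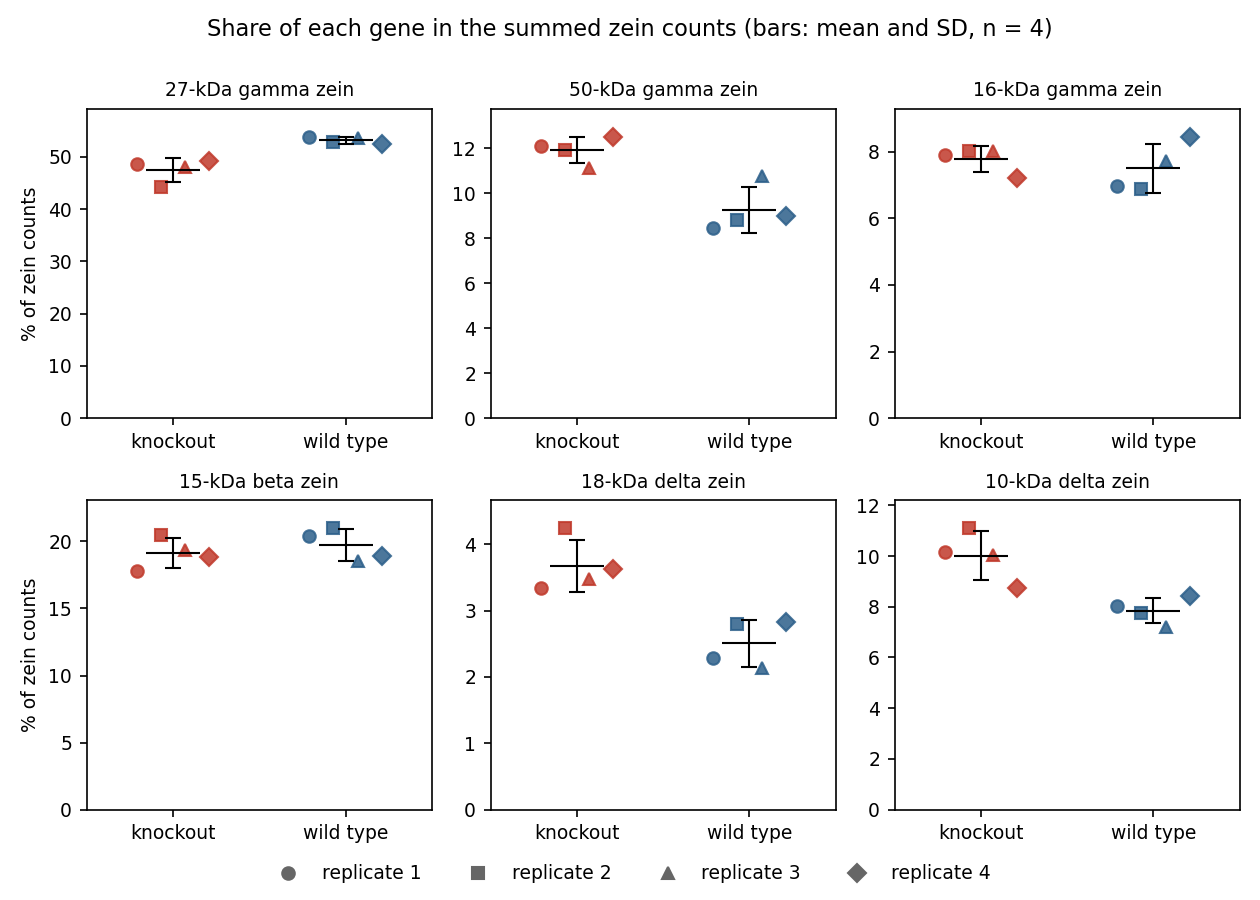
Share of each gene in the summed counts of the 6 zein genes (percent, vertical axis), in the knockout (red, left) and wild type (blue, right); marker shapes give the replicate number and black lines the mean and SD (n = 4). The 27-kDa gamma zein is lower in the knockout (44.2% to 49.1%) than in wild type (52.4% to 53.8%), the 50-kDa gamma zein and both delta zeins are higher, and the 16-kDa gamma and 15-kDa beta zeins overlap.

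Ratios of a pair of genes within a library do not depend on how libraries are scaled, and 3 of them were tested. The counts of the 50-kDa gamma zein relative to those of its neighbour, the 27-kDa gamma zein, were 0.248, 0.270, 0.233 and 0.255 in knockout replicates 1 to 4, against 0.157, 0.167, 0.201 and 0.172 in wild type replicates 1 to 4. All knockout ratios exceeded all wild type ratios, by 0.53 on the log2 scale between the means (two-sided exact permutation test, p = 0.0286, which is the lowest that 4 libraries against 4 allow). Adjusted over the 3 ratios the p was 0.0857, which misses 0.05. With 3 ratios, 1 at the lowest p cannot pass 0.05 after adjustment unless another also reaches it, so that miss decides nothing. For the 16-kDa to the 27-kDa gamma zein the mean ratio was 0.165 ± 0.0144 in the knockout and 0.141 ± 0.0150 in wild type (SD, n = 4), with overlapping ranges (two-sided exact permutation test, p = 0.0571, adjusted 0.0857). For the 18-kDa to the 10-kDa delta zein it was 0.368 ± 0.0389 in the knockout and 0.319 ± 0.0361 in wild type (SD, n = 4; two-sided exact permutation test, p = 0.143, adjusted 0.143), so a difference between the rises of the delta zeins was not resolved.

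Over all 15 pairs of the 6 genes, the log2 count ratio lay apart for 7 pairs and overlapped for 8, near the background of 54% among 4950 pairs of abundant genes, the zeins included. The widest difference within the zeins was in the ratio of the 27-kDa gamma to the 18-kDa delta zein, with a knockout minus wild type difference of -0.72 on the log2 scale. The narrowest was in the ratio of the 50-kDa gamma to the 10-kDa delta zein, at 0.02.

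Genes next to the zein genes were examined for shared rises. The zein genes themselves were left out, so the 50-kDa and 27-kDa gamma zein genes, which both rose, were not counted as neighbours of each other. The nearest other tested genes on either side were 10 genes in all, 611 to 398934 bases away. They included 0 that rose and 1 that fell (edgeR adjusted p below 0.05, against 8.51% and 10.1% of all tested genes). At an unadjusted p below 0.05 edgeR gave 1 higher and 1 lower gene, but the share of all tested genes at that threshold was not computed. At an adjusted p below 0.05 DESeq2 called 1 higher and 1 lower gene, against 2340 and 2534 of all 22014 tested genes. Limma-voom called 0 higher and 1 lower, against 1846 and 2228 of all 22014. The gene that fell lies 5824 bases from the 18-kDa delta zein gene and averaged 1.16 CPM in knockout libraries and 2.14 CPM in wild type libraries (log2 fold change -0.89, edgeR adjusted p = 0.00731). The closest gene, 611 bases from the 15-kDa beta zein gene, averaged 46.2 CPM in knockout libraries and 42.0 CPM in wild type libraries (log2 fold change 0.14, edgeR adjusted p = 0.0553). The tested genes flanking the 50-kDa and 27-kDa gamma zein pair on chromosome 7 had log2 fold changes of 0.53 (edgeR adjusted p = 0.397) and -0.09 (edgeR adjusted p = 0.490). The former averaged only 1.21 CPM in knockout libraries and 0.83 CPM in wild type libraries. A gene flanking the 10-kDa delta zein gene averaged 0.20 CPM in both genotypes. At such low levels a rise of the size seen in the zein genes may go undetected.

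The genes whose profile over the 8 libraries was most like the mean zein profile were looked for among the 6133 tested genes whose log2 CPM averaged at least 5. Likeness was the root mean square difference between log2 CPM values centred on each gene's mean. The nearest gene was Zm00001d014888 (chromosome 5, 68831057 to 68831952), at 0.093, which averaged 338 ± 30.2 CPM in knockout libraries and 186 ± 6.70 CPM in wild type libraries (SD, n = 4). The next was Zm00001d019563 (chromosome 7, 42267842 to 42271394), at 0.095, with 522 ± 58.0 CPM in knockout libraries and 325 ± 10.4 CPM in wild type libraries. The zein genes themselves lay at 0.103 (16-kDa gamma) to 0.222 (18-kDa delta) from their own mean profile, and the median over the 6133 genes was 0.39. The mean profile was made from these 6 genes, so their closeness to it is partly built in. The measure also responds to the size of the difference between the genotypes, not only to the pattern among libraries. The table pairs neither of the 2 identifiers with a name.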

How the data were processed

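RNA was sequenced as paired-end reads on an Element AVITI instrument, per the labels' protocols. Trimmomatic 0.39 and HISAT2 were used, per the submitters' processing notes. The deposited values are raw counts of reads over the genes of an A188 annotation, made with featureCounts 2.0.1 and, per the file headers, with no option for strand, pairs or multi-mapping reads. Reads aligning to several places were therefore not counted, which leaves near-identical copies uncertain, and strands are not told apart. The exon length per gene, in bases, was deposited in the same table, per the file headers.

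Totals were 47143888 to 65625013 counts in the knockout libraries and 58330218 to 80577963 counts in the wild type libraries. The table pairs identifiers with no names, and 0 of its 37965 identifiers matched the RefSeq table. The zein names came with the list of identifiers that defined the set. Lists of other zein-pathway genes and of cell type markers, planned by symbol, could not be paired and were not analysed here. The members and lists were chosen with earlier results of these data known. All 6 zein genes are named, and the 2 genes of like profile follow from the rule given with them.

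Genes were filtered with filterByExpr, scaled with TMM factors and tested with edgeR 4.0.16 (quasi-likelihood test, genotype only) in R 4.3.3, with Benjamini-Hochberg adjustment over 22014 genes and a threshold of 0.05. SEs and 95% intervals follow from the F statistic. CPM is the count relative to the TMM-adjusted library size. The procedure was tested on simulated data. Ratios were compared with exact permutation tests in scipy 1.17.1. Alternatives were DESeq2 1.42.0, limma-voom (limma 3.58.1), 3 other scalings, 2 other filters, the replicate block and leaving out each library.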

Additional observations from a re-analysis of the deposited data

Results flagged for a closer look

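Among 22 sets of 4 values searched (each zein gene's CPM, the 3 ratios, the summed zein share and the library totals, in each genotype), 1 held a library far from the rest of its group, about the 1 in 20 that chance gives. The total of wild type replicate 2 was 80577963 counts, while the totals of the other wild type libraries were 58330218 to 61613873. Without that library the 6 zein genes had log2 fold changes of 0.40 (27-kDa gamma) to 1.17 (18-kDa delta), with a median of 0.75. All 6 rose, where 5.82% of all tested genes rose.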

How the results depend on the processing

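Each of the 6 zein genes kept its rise and an edgeR adjusted p below 0.05, or that of DESeq2 or limma-voom, in all 16 alternatives. Of all tested genes, 4.69% (scaling by library totals) to 10.6% (DESeq2) rose in these alternatives. The 18-kDa delta zein had the largest and the 27-kDa gamma zein the smallest log2 fold change in all 17 settings, main one included. These settings draw on the same libraries and do not resolve the order. The count ratio of the 27-kDa gamma to the 15-kDa beta zein overlapped between the genotypes. So did the ratios of the 18-kDa delta zein with the 50-kDa gamma and the 10-kDa delta zein. The highest adjusted p was 0.0289, for the 27-kDa gamma zein without knockout replicate 1 (edgeR). The number of changed genes, 4086, was 2783 to 4012 with 1 library left out and 3000 to 5775 otherwise. With the replicate number as a block it was 3000, and the zein genes rose by 0.41 to 1.12 on the log2 scale. The block changed no zein call. The deviations of same-numbered libraries from their group means correlated at 0.10, 0.10, -0.05 and -0.13 across genes, and 2 of the 8 libraries were closest to their own number. The 3 ratios kept their direction in all 9 alternatives each, but with 3 libraries against 4 or with 4 pairs the exact tests cannot reach 0.05. The summed share differed by 0.891 to 1.09 percentage points with 1 library left out.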
